A study of Rattus norvegicus with 8 samples.

Results

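The left medial vestibular nucleus (MVN) of rats with a unilateral vestibular deafferentation (UVD group) was compared with that of rats with a sham operation (SO group) at 4 d after surgery, on 2 miRNA arrays per group. All animals were male Sprague–Dawley rats aged 7 weeks, and the labels name no genetic change. In the UVD group the left vestibule was opened and flushed with ethanol, which destroys the inner ear organ of balance. The SO group had the same approach through the left ear, without opening the vestibule and without ethanol, so both groups had lost the left eardrum and all left ossicles except the stapes. RNA from the left MVNs of 3 rats was pooled for each array, so a group is 2 pools and the spread within it is a spread between pools. The other 4 of the 8 arrays were UVD and SO pools at 4 h after surgery and were used for the common estimate of the spread and for the comparison between timepoints.

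Of the 758 rat miRNAs on the array, 419 were detected by the scanner software on both UVD arrays or on both SO arrays at 4 d, and these are described here. On all 4 arrays 402 of them were detected. Another 10 were detected on both UVD arrays and 1 SO array, and 7 on both UVD arrays and neither SO array. The opposite patterns held 0 miRNAs. The scanner detected 423 and 430 miRNAs on the UVD arrays and 413 and 409 on the SO arrays. Intensities are total signals of 16 spots per miRNA, quantile normalized over the 8 arrays so that every array has the same distribution, with values under 1 set to 1. They have no absolute unit, and the level of one miRNA cannot be read against that of another. A summed intensity of a list is led by its brightest members and mainly restates their values.

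A miRNA is a short RNA that guides the silencing machinery to messenger RNAs, mainly by pairing through its seed, which is bases 2 to 8. Many miRNAs are made by one cell type, so a tissue sample carries marks of the cells it holds. The MVN is a brainstem nucleus in the floor of the fourth ventricle. It receives the vestibular nerve, and losing 1 labyrinth leaves its resting activity unequal between the sides. Vestibular compensation is the recovery of that balance, during which glial cells in the nucleus react and neurons change their excitability. The choroid plexus, a folded epithelium that makes cerebrospinal fluid, hangs in the same ventricle, and the cerebellum lies above it. Markers of such neighbors were listed beside those of neurons and glia. In pooled tissue, fewer cells of a type and less RNA per cell cannot be told apart.

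The mature sequences of the miRNAs on which the results turn are given from RefSeq on the rat assembly GRCr8, 5′ to 3′, with the seed in capitals. A mature sequence was found there for 383 of the 419 miRNAs. The first set holds 4 miRNAs of the choroid plexus list and a miRNA of the gene in which miR-1298 lies. miR-204-5p and miR-211-5p share a seed and come from different genes, and miR-1298 and miR-448-3p lie in the same gene with different seeds.
miR-1298: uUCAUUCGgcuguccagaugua
miR-448-3p: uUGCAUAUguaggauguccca
miR-204-5p: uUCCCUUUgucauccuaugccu
miR-211-5p: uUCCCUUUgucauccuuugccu
miR-204-3p: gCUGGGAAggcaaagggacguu
The next set holds the arms of the miR-7a precursors, shown because 1 of them gave the single call between timepoints. The passenger arms miR-7a-1-3p and miR-7a-2-3p differ in their seeds and thus in the messenger RNAs they could pair with.
miR-7a-5p: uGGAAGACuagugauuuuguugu
miR-7a-1-3p: aCAACAAAucacagucugccau
miR-7a-2-3p: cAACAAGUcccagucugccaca
The third set holds miRNAs linked to injury, oligodendrocytes, sensory epithelia and blood cells. miR-221-3p and miR-222-3p are neighbors with the same seed, and miR-96-5p, miR-182 and miR-183-5p come from 1 cluster with different seeds.
miR-221-3p: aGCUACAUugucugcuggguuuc
miR-222-3p: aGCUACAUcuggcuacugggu
miR-210-3p: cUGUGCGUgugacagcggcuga
miR-219a-5p: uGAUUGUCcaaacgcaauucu
miR-96-5p: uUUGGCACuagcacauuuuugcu
miR-182: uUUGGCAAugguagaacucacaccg
miR-183-5p: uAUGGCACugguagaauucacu
miR-223-3p: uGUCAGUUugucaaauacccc
The last set shows members of the miR-17 seed family from 2 different clusters.
miR-20b-5p: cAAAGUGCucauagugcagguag
miR-93-5p: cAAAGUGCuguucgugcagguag
miR-106b-5p: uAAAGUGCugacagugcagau

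Among the lists of marker miRNAs, that of the choroid plexus had the highest median difference between the groups at 4 d and that of sensory and other epithelia the lowest, and no member of either passed adjustment. miR-221-3p and miR-210-3p, both from the list of reactive glia and injury, were brighter on both UVD arrays than on either SO array. miR-219a-5p, which drives oligodendrocyte differentiation, was dimmer on both. No single miRNA was separated from the spread between pools after correction: limma with Benjamini-Hochberg adjustment called 0 of 422 miRNAs fitted (0%), and the smallest adjusted p was 0.113, for miR-7a-2-3p. An unadjusted limma p under 0.05 was reached by 10 miRNAs that were higher in the UVD group (2.37% of those fitted) and 6 that were lower (1.42%). Among the 10 was miR-128-2-5p, which was detected on neither SO array at 4 d and held there at the floor of 1. Of the 422 miRNAs fitted, the methods' t-test gave 16 at 0.05, 59 under the study's p limit of 0.15 and 0 after adjustment (smallest adjusted p = 0.806). The study joined that limit to fold limits of 1.2 and 0.83, and 26 miRNAs met both, 13 higher and 13 lower. Its exclusions, such as that of miRNAs that changed between timepoints in the SO group, were not applied. With 2 arrays against 2, a two-sided exact permutation test of a single miRNA cannot go below p = 0.333.

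Among the 419 miRNAs, 177 had a higher mean in the UVD group, 236 a lower one and 6 equal means. Over the 422 fitted, the shares were 41.9% higher and 56.4% lower, with a median log2 fold change of -0.02. Both UVD arrays lay above both SO arrays for 51 miRNAs (12.1%) and below both for 73 (17.3%). The counts of higher means, lower means and arrays without overlap in each list below are to be read against these shares. The median standard error of a log2 fold change was 0.11, and the median 95% interval reached 0.28 to either side. For the 324 miRNAs with a mean intensity of at least 16, the middle 90% of log2 fold changes ran from -0.22 to 0.27. More than 2-fold differences were found for 20 miRNAs, 14 higher and 6 lower in the UVD group. Only 3 of these 20 had a mean intensity of at least 16, namely miR-1298, miR-223-3p and miR-141-3p. All miRNAs detected on both UVD arrays and on neither SO array, except miR-425-3p, were among the 14. Their SO values were set to the floor of 1, so the sizes of their differences depend on the floor. The opposite detection pattern held no miRNA, so the counts of 14 and 6 cannot be read as a balance of directions. The plot of fold change against intensity shows the wide scatter at low intensity and the narrow band above it.

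**Figure D1:**
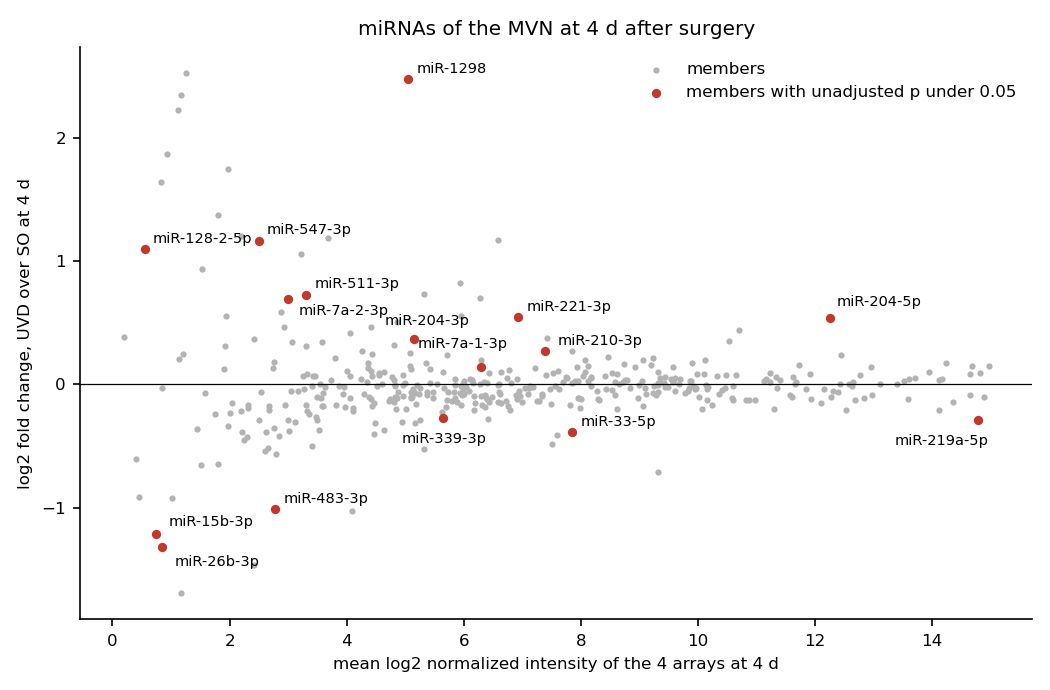
Log2 fold change of the UVD over the SO group at 4 d (vertical axis) against the mean log2 normalized intensity of the 4 arrays (horizontal axis), with 1 point per miRNA. The 16 miRNAs with an unadjusted limma p under 0.05 are red and named; miR-1298 stands alone above 2 at middle intensity, and the other points beyond 1 in either direction lie mostly at the left.

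The arrays of 1 group were not all alike. UVD replicate 2 at 4 h stood furthest apart, with 378 miRNAs detected against 408 to 430 on the other 7 arrays and r between 0.9709 and 0.9833 with them, and it enters the common spread and each comparison with 4 h. Without it, limma called 0 miRNAs at 4 d (smallest adjusted p = 0.0572), and no named log2 fold change of at least 0.25 at 4 d moved by over 1.5 times. At 4 d, replicate 1 of the UVD group correlated as closely with replicate 2 of the SO group (r = 0.9922 over the log2 values of the 419 miRNAs) as with its own replicate (r = 0.9918). Between the UVD replicates, 5 miRNAs with a mean intensity of at least 16 differed by more than 1 on the log2 scale. miR-1298, miR-448-3p and miR-144-3p were higher in replicate 1, and miR-223-3p and miR-484 in replicate 2. Between the SO replicates the same held for miR-206-3p alone. Where a result rests on 1 of the pools, both values are given. All 8 arrays were on 1 slide and scanned on 1 day. The UVD arrays were in row 2 and the SO arrays in row 1, so slide row and group cannot be told apart. The 4 d arrays were in columns 1 and 2 and the 4 h arrays in columns 3 and 4. Slide column and timepoint thus cannot be told apart either.

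**Figure D2:**
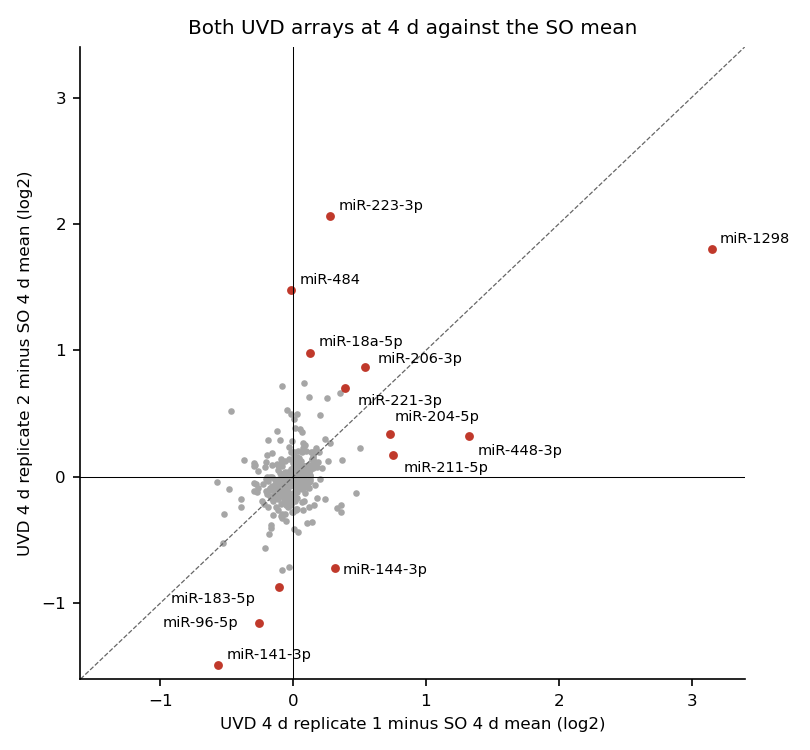
Log2 difference of UVD replicate 1 (horizontal axis) and UVD replicate 2 (vertical axis) from the mean of the SO arrays at 4 d, for the 324 miRNAs with a mean intensity of at least 16; the dashed line marks equal differences. miR-1298 and miR-204-5p lie to the right and above 0 on both axes, miR-223-3p and miR-484 are raised on the vertical axis alone or mostly, and miR-96-5p and miR-183-5p lie lowest on the vertical axis together with miR-141-3p.

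Of the 5 choroid plexus miRNAs listed, all were detected on all 4 arrays, 4 had a higher mean in the UVD group, and 3 did not overlap between the groups and had an unadjusted p under 0.05. Their median log2 fold change was 0.46, beside -0.02 for all miRNAs fitted. It was 0.27 with a pseudocount of 16, 0.17 on the authors' normalized values and 0.11 with normexp background correction and its offset of 50. miR-1298, which is abundant in choroid plexus, had intensities of 125 and 48.9 on the UVD arrays and 18.6 and 10.5 on the SO arrays. Both UVD pools were far above both SO pools and also above all 4 pools at 4 h, which ranged from 16.1 to 25.3. The means were 86.8 ± 53.5 and 14.6 ± 5.73 (SD, n = 2), the log2 fold change was 2.48 with a standard error of 0.50, and both probes of the miRNA gave this direction (2.26 and 2.30 on their own). The limma adjusted p was 0.419. The log2 fold change was 1.66 with the pseudocount of 16, 0.96 on the authors' values and 0.77 with normexp.

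miR-204-5p, a miRNA of choroid plexus and retinal pigment epithelium that lies in the channel gene Trpm3, had intensities of 6745 and 5151 on the UVD arrays and 3957 and 4180 on the SO arrays. The 4 pools at 4 h lay between 3820 and 3957, so the UVD pools at 4 d were the highest of the 8. The means were 5948 ± 1127 and 4068 ± 157 (SD, n = 2), and the log2 fold change was 0.54 (standard error 0.13, limma adjusted p = 0.617). The other arm of its precursor, miR-204-3p, had 44.1 and 36.5 against 28.6 and 34.0, with a log2 fold change of 0.36 (limma adjusted p = 0.745). Both arms of the precursor were thus higher on both UVD arrays.

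miR-211-5p carries the seed of miR-204-5p and lies in the related gene Trpm1. Its intensities were 30.5 and 20.4 on the UVD arrays and 15.5 and 21.2 on the SO arrays, so the groups overlapped (log2 fold change 0.46, 95% interval from -0.18 to 1.11). Its other arm, miR-211-3p, was at 42.3 and 44.9 against 44.9 and 46.0, the single member with a lower mean. The summed intensity of the 5 miRNAs was 6986 and 5301 on the UVD arrays and 4065 and 4291 on the SO arrays. Most of it was miR-204-5p, and none of the 5 miRNAs was at the floor. A share of choroid plexus in the dissected tissue was not measured, and its part in these differences was not tested. The median of the list was 0.23 without UVD replicate 1, 0.72 without UVD replicate 2 and 0.24 without SO replicate 1.

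miR-1298 lies within Htr2c, the gene of a serotonin receptor that choroid plexus epithelium expresses strongly. The other miRNAs of that gene were looked up after the value of miR-1298 had been seen. miR-448-3p had intensities of 115 and 57.2 on the UVD arrays and 54.5 and 38.6 on the SO arrays, without overlap (log2 fold change 0.82, limma adjusted p = 0.745). On the 4 arrays at 4 h it was between 46.0 and 70.0, so only UVD replicate 1 at 4 d stood above them. miR-448-5p, its other arm, had 26.8 and 17.7 against 23.9 and 15.7, and miR-764-3p had 22.1 and 19.1 against 24.4 and 16.8, with overlap for both. miR-1912-3p was detected on 1 of the 8 arrays, UVD replicate 1 at 4 d, at 8.39. miR-1912-5p and miR-3552, also of that gene, were detected on no array. UVD replicate 1 was thus the highest of the 4 d arrays for all of the detected ones except miR-764-3p.

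**Figure D3:**
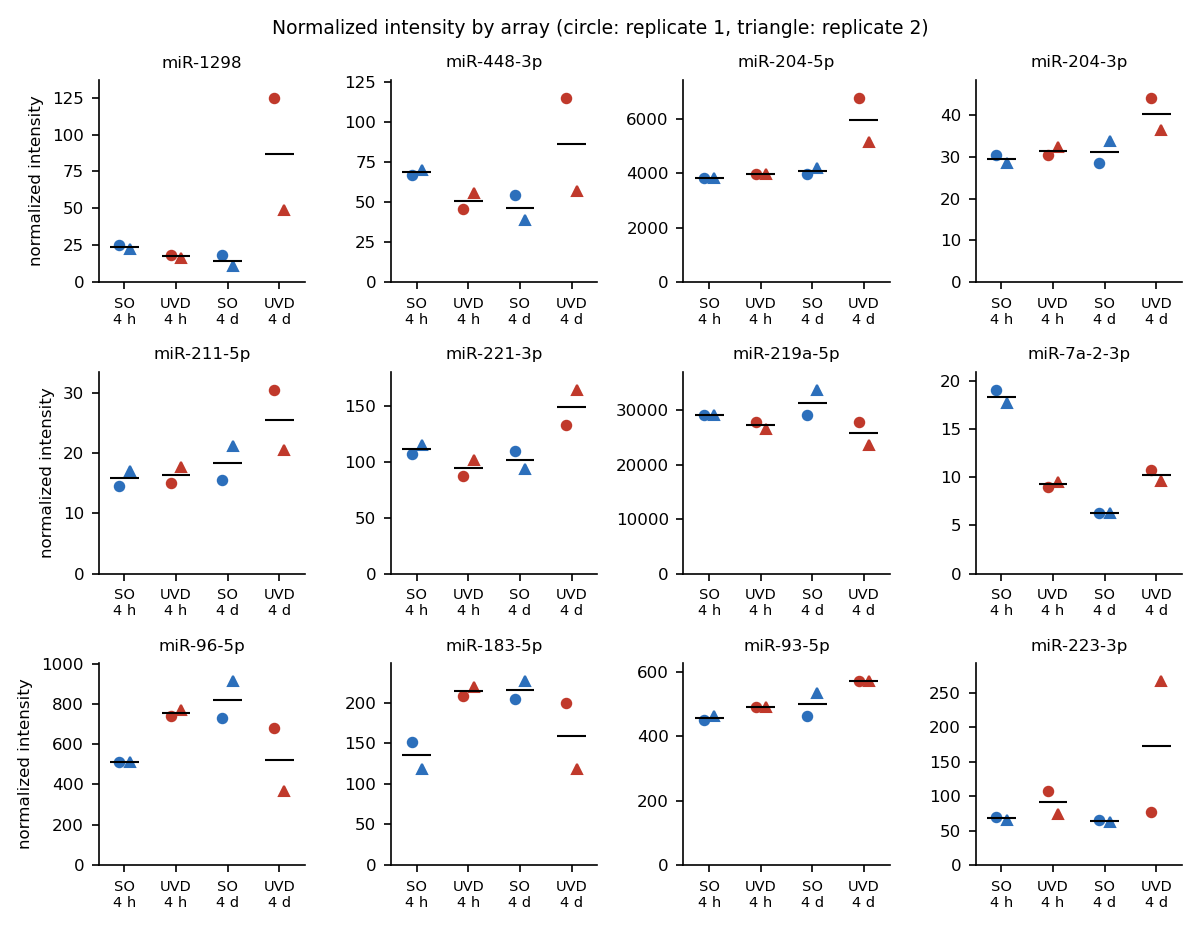
Normalized intensity of 12 miRNAs on the 8 arrays, each on a linear axis from 0, with 1 point per array (circles replicate 1, triangles replicate 2, blue SO group, red UVD group) and a black line at each mean of 2 arrays. At 4 d both UVD points of miR-1298, miR-204-5p and miR-221-3p lie above both SO points, those of miR-219a-5p and miR-96-5p lie below them, and the UVD points of miR-223-3p lie far apart.

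Of the 8 measured miRNAs listed for reactive glia and injury, 7 had a higher mean in the UVD group and 3 did not overlap, with a median log2 fold change of 0.11. The median was 0.03 without UVD replicate 2, 0.20 without UVD replicate 1 and 0.21 without SO replicate 2, and it was 0.04 on the authors' values and 0.05 with normexp. miR-221-3p, which promotes cell division by repressing cell cycle inhibitors, had intensities of 133 and 164 on the UVD arrays and 109 and 93.3 on the SO arrays. Both UVD pools at 4 d were also above the 4 pools at 4 h, which lay between 87.4 and 115. The means were 148 ± 22.2 and 101 ± 11.3 (SD, n = 2), and the log2 fold change was 0.55 (standard error 0.15, limma adjusted p = 0.701). Its cluster partner with the same seed, miR-222-3p, had 59.5 and 70.0 on the UVD arrays and 68.4 and 59.0 on the SO arrays, with a log2 fold change of 0.02 and a 95% interval from -0.29 to 0.34. The 2 members of the cluster thus had different estimates, and the difference between them was not tested.

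miR-210-3p, the miRNA best known for its induction by low oxygen, had 180 and 187 on the UVD arrays and 147 and 157 on the SO arrays. This gave the small log2 fold change of 0.27 with a narrow standard error of 0.08 (limma adjusted p = 0.745). miR-21-5p, which rises in many reactive and dividing cells, had 5151 and 7029 against 4964 and 5271, so only UVD replicate 2 was clear of the SO arrays. miR-31a-5p, linked to injury and growth of epithelia, had 171 and 177 against 159 and 171.

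All 6 measured miRNAs of microglia and leukocytes had a higher mean in the UVD group, with a median log2 fold change of 0.18, and 2 did not overlap between the groups. The median was 0.07 without UVD replicate 2 and 0.10 without SO replicate 1, and it was 0.11 on the authors' values and 0.09 with normexp. miR-223-3p, a miRNA of neutrophils and other myeloid cells, had intensities of 77.5 and 267 on the UVD arrays and 65.8 and 61.8 on the SO arrays. The SO pools were close to each other and to UVD replicate 1, and UVD replicate 2 stood far above the other 3 arrays. The log2 fold change was 1.17 with a standard error of 0.58 (limma adjusted p = 0.745), and it was 0.28 without UVD replicate 2 and 2.07 without UVD replicate 1. miR-142-3p, made by all blood cell lineages, had 581 and 712 against 491 and 629, with overlap. miR-511-3p lies in Mrc1, the mannose receptor gene of macrophages, and is not on that list. It had 13.1 and 12.4 against 7.17 and 8.25 (log2 fold change 0.73, limma adjusted p = 0.745). The summed intensity of the 6 listed miRNAs was 4084 and 4310 on the UVD arrays and 3819 and 3942 on the SO arrays.

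Of the 4 erythroid miRNAs, 3 had a higher and 1 a lower mean in the UVD group, and the groups overlapped for all 4. miR-451-5p, which is specific to the erythroid lineage, had 1030 and 690 on the UVD arrays and 804 and 829 on the SO arrays. miR-144-3p, from the same cluster, had 147 and 71.8 against 122 and 115. UVD replicate 1 was thus above and UVD replicate 2 below both SO arrays for both miRNAs. The summed intensity of the 4 erythroid miRNAs, most of it from miR-451-5p, was 1287 and 874 on the UVD arrays and 1018 and 1061 on the SO arrays. Their median log2 fold change of 0.07 was 0.33 without UVD replicate 2, -0.30 without UVD replicate 1, -0.04 without SO replicate 1 and 0.17 without SO replicate 2.

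Of the 5 measured oligodendrocyte miRNAs, 4 were lower on average in the UVD group and 2 did not overlap, with a median log2 fold change of -0.14. miR-219a-5p, which promotes the differentiation of oligodendrocyte precursors, had intensities of 27832 and 23574 on the UVD arrays and 29054 and 33707 on the SO arrays. Both UVD pools were lower than both SO pools, and the 4 pools at 4 h lay between 26530 and 29054. The means were 25703 ± 3011 and 31381 ± 3290 (SD, n = 2), and the log2 fold change was -0.29 (standard error 0.11, limma adjusted p = 0.745). miR-338-3p, another myelin miRNA, was equal at 21949 on 3 of the 4 arrays and 18049 on UVD replicate 2. All 5 miRNAs were lower on UVD replicate 2 than on UVD replicate 1, and their median was -0.29 without replicate 1 and 0.00 without replicate 2. With no scaling between arrays it was 0.02, below the 0.16 of all miRNAs.

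All 16 neuron-enriched miRNAs on the array were detected on all 4 arrays, 8 with a higher and 7 with a lower mean in the UVD group, and the median log2 fold change was 0.01. miR-124-3p, the most used marker of neurons among miRNAs, had 26106 and 29054 on the UVD arrays and 23574 and 26106 on the SO arrays, and miR-128-3p had 8310 on both UVD arrays against 7267 and 7829. Neither had an unadjusted p under 0.05. miR-137-3p, a regulator of neuronal maturation, had 473 and 534 against 614 and 524. The 95% intervals of the log2 fold change ran from -0.16 to 0.46 for miR-124-3p and from -0.05 to 0.33 for miR-128-3p.

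The activity-dependent list held 6 measured miRNAs, all of them lower on average after UVD, 4 without overlap, with a median log2 fold change of -0.25. Its members miR-134-5p, miR-134-3p and miR-485-5p are also in the Dlk1-Dio3 list below, so these lists are not independent of each other. None had an unadjusted p under 0.05. miR-132-3p, transcribed in response to synaptic activity, had 1115 and 1161 on the UVD arrays and 1464 and 1115 on the SO arrays, so 1 SO pool was level with the UVD pools. miR-212-3p, from the same precursor transcript, had 949 and 1014 against 1000 and 1014. Larger differences were found for other members. miR-212-5p had 5.03 and 5.47 against 8.58 and 6.57, and miR-134-5p, which acts in dendrites, had 71.8 and 83.6 against 103 and 86.2. miR-485-5p had 68.4 and 66.2 against 81.0 and 74.9 (log2 fold change -0.21, limma adjusted p = 0.745). With no scaling between arrays, where the median of all miRNAs was 0.16, the median of this list was 0.04, so it lay lower than that of all miRNAs there too. It was -0.15 without SO replicate 1, -0.38 without SO replicate 2, -0.09 on the authors' values and -0.08 with normexp. At 4 h the median of the same miRNAs was -0.13.

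The 5 measured miRNAs of sensory and other epithelia all were lower on average in the UVD group, 3 without overlap, and their median log2 fold change of -0.71 was the lowest of the lists. The cluster of miR-96, miR-182 and miR-183 is best known from hair cells, photoreceptors and sensory ganglia. miR-96-5p had 681 and 366 on the UVD arrays and 728 and 912 on the SO arrays, a log2 fold change of -0.71 (standard error 0.30, limma adjusted p = 0.745). miR-183-5p had 200 and 118 against 205 and 226, and miR-182 had 209 and 133 against 193 and 255. UVD replicate 2 was the lowest of the 4 arrays for all 3, and UVD replicate 1 was close to the lower SO array.

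miR-141-3p, of the epithelial miR-200 family, had 16.4 and 8.66 on the UVD arrays against 20.9 and 28.2 on the SO arrays, a log2 fold change of -1.03 with a 95% interval from -2.48 to 0.43. miR-183-3p, the other arm of miR-183-5p, had 7.81 and 1.33 against 7.81 and 10.1. The other 4 listed miRNAs of this group were not detected on both arrays of either group. The summed intensity of the 5, most of it from miR-96-5p, was 1114 and 626 on the UVD arrays and 1155 and 1431 on the SO arrays. The median of the list was -0.19 without UVD replicate 2 and -1.15 without UVD replicate 1, so its size depended on 1 pool. It was -0.44 with the pseudocount of 16, -0.35 on the authors' values and -0.26 with normexp. At 4 h the same miRNAs had a median of 0.56.

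Muscle miRNAs were measured because they can enter with tissue around the brainstem. Of 7 measured, 2 had a higher and 5 a lower mean in the UVD group, with a median log2 fold change of -0.14. miR-206-3p, a skeletal muscle miRNA, was the highest of them and had 88.4 and 110.8 on the UVD arrays and 42.3 and 87.4 on the SO arrays. It stood just clear of the SO arrays, which differed between themselves by more than the groups did (log2 fold change 0.70, limma adjusted p = 0.745). miR-1-3p went the other way, with 27.8 and 17.4 against 25.8 and 31.4. The summed intensity of the 7, most of it from miR-133b-3p, was 3619 and 2702 on the UVD arrays and 3176 and 3705 on the SO arrays. Of the 7, 6 were lower on UVD replicate 2 than on UVD replicate 1. The median was 0.11 without UVD replicate 2, -0.38 without UVD replicate 1, -0.30 without SO replicate 1 and -0.03 without SO replicate 2. With no scaling between arrays it was 0.015, below the 0.16 of all miRNAs.

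All 5 measured vessel miRNAs were lower on average in the UVD group, 3 without overlap, with a median log2 fold change of -0.11. miR-126a-3p, the endothelial miRNA, had 4180 on both UVD arrays and 4505 and 4773 on the SO arrays (log2 fold change -0.15, limma adjusted p = 0.745). Equal values are ties in rank that quantile normalization turns into equal intensities. With no scaling between arrays the median of this list was 0.06, below the 0.16 of all miRNAs.

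The miR-17 family clusters are linked to cell division, and glial cells can divide in the MVN during compensation. Of their 12 measured miRNAs, 11 had a higher mean in the UVD group, 5 did not overlap, 0 had an unadjusted p under 0.05, and the median log2 fold change was 0.16. All 5 miRNAs with the seed AAAGUGC had a higher mean, between 0.14 and 0.22 on the log2 scale. miR-93-5p, which lies in the replication gene Mcm7, had 571 on both UVD arrays and 464 and 534 on the SO arrays (log2 fold change 0.20, limma adjusted p = 0.745). miR-106b-5p, from the same cluster, had 1000 and 1030 against 852 and 949, without overlap. miR-20b-5p had 339 and 425 against 309 and 343, with overlap. The largest estimate was that of miR-18a-5p, which had 56.0 and 101 against 50.7 and 51.6. The median of the list was 0.04 without UVD replicate 2, 0.10 without SO replicate 1 and 0.27 without SO replicate 2.

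**Figure D4:**
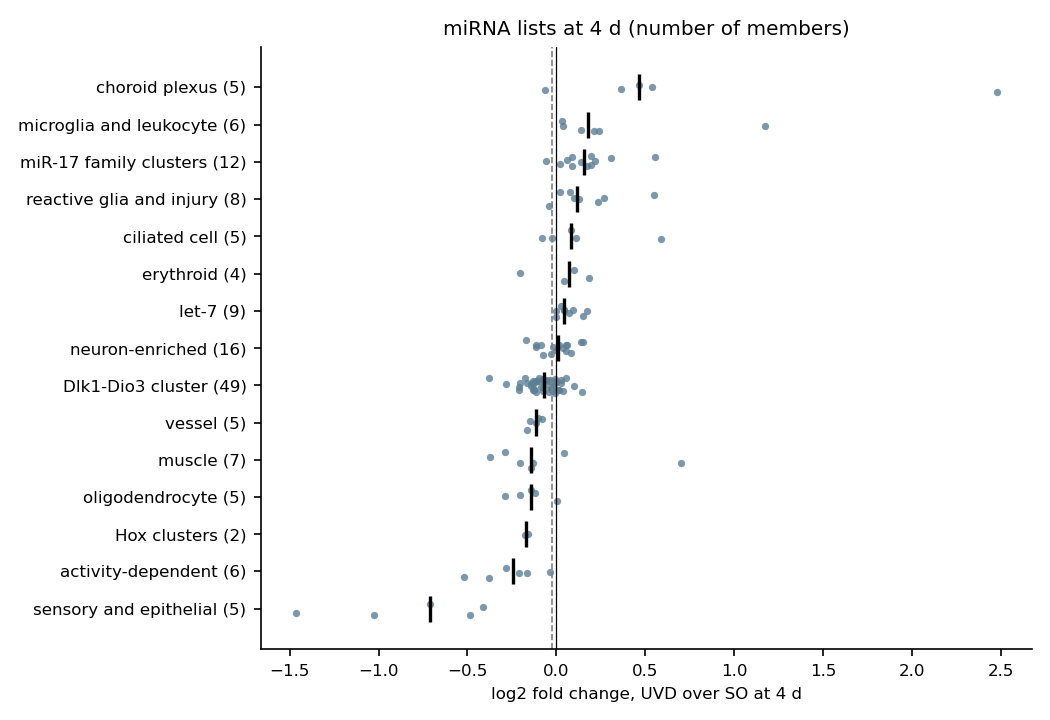
Log2 fold change of the UVD over the SO group at 4 d for the members of 15 lists, with 1 point per miRNA, a black bar at the median of each list, a dashed line at the median of all miRNAs fitted and the number of members in brackets. The choroid plexus list lies furthest to the right with a median of 0.46 and the sensory and epithelial list furthest to the left with -0.71; the neuron-enriched and let-7 lists lie near 0.

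let-7 miRNAs, which accompany differentiation, differed little. Of 9, 7 had a higher mean in the UVD group and 0 a lower one, and the largest log2 fold change was 0.17, for let-7f-5p, with 19146 and 21949 against 18049 and 18373. The imprinted Dlk1-Dio3 cluster holds many neuronal miRNAs. Of its 49 measured miRNAs, 40 had a lower mean and 12 did not overlap, all of them lower. Over all miRNAs fitted, 56.4% had a lower mean and 17.3% were lower without overlap. The log2 fold changes of the cluster were small, from -0.38 to 0.14 with a median of -0.07. At 4 h the median of the same miRNAs was -0.15, so lower values were not particular to 4 d. An unadjusted limma p under 0.05 was reached by 0 of its miRNAs. The median was -0.01 without SO replicate 1, -0.04 without UVD replicate 2 and -0.11 without SO replicate 2. With no scaling between arrays the median of the cluster was 0.11, again below that of all miRNAs. Of the Hox cluster miRNAs, which mark the hindbrain and spinal cord, miR-10a-5p and its relative miR-10b-5p had 168 and 171 against 226 and 159, and 109 and 93.3 against 133 and 98.4, both with overlap.

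The ciliated-cell list held 5 measured miRNAs, 3 with a higher and 2 with a lower mean, and its median was 0.08, which turned to -0.07 without SO replicate 1. miR-34c-5p, which takes part in the formation of motile cilia, had 1046 on both UVD arrays and 976 and 1000 on the SO arrays. miR-449a-5p, of the same seed family, had 9.22 and 8.87 against 4.94 and 7.31, a log2 fold change of 0.59 with a 95% interval from -1.22 to 2.40. The ependyma that lines the ventricle is a ciliated epithelium.

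Of the 9 candidate miRNAs of the study, which were chosen in part on these arrays and are not independent evidence, at 4 d the UVD mean was above the SO mean for 5 and below it for 4. miR-219a-5p, miR-204-5p and miR-221-3p, given above, were the 3 with an unadjusted p under 0.05. miR-497-5p, a member of the miR-15 and miR-16 seed family that restrains the cell cycle, had 1503 and 1834 on the UVD arrays and 1161 and 1464 on the SO arrays (log2 fold change 0.35, limma adjusted p = 0.745). Its neighbor miR-195-5p, with the same seed, had 1709 and 2212 against 1201 and 1709. The UVD arrays were level with or above the SO arrays for both. miR-218a-5p, a motor neuron and hindbrain miRNA, had 2949 on both UVD arrays and 3329 and 2949 on the SO arrays. The paper followed the candidates by quantitative PCR in single animals and describes miR-218a-5p and miR-219a-5p as increased in the UVD group. On the arrays at 4 d, the UVD mean was the lower one for both. miR-133a-3p and miR-133b-3p, muscle miRNAs, had 129 and 115 against 120 and 150, and 2111 and 1528 against 1834 and 2111, with overlap for both.

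Other miRNAs with the smallest p-values were not members of a list. miR-33-5p, which lies in the sterol regulator gene Srebf2 and represses cholesterol export, had 229 and 180 on the UVD arrays and 255 and 275 on the SO arrays (log2 fold change -0.39, limma adjusted p = 0.745). Each of its 3 probes, taken alone, was lower in the UVD group. miR-339-3p had 48.9 and 42.3 against 53.9 and 56.0 (log2 fold change -0.27, limma adjusted p = 0.745). miR-483-3p, which lies in the growth factor gene Igf2, was dim, at 4.84 on both UVD arrays against 12.5 and 7.62. miR-138-2-3p and miR-503-5p were lower by 0.15 and 0.16 on the log2 scale, at a limma adjusted p of 0.745 each and without overlap for either.

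miR-7a-2-3p, a passenger arm of the neuronal miR-7a family, had the smallest p at 4 d. Its intensities were 10.8 and 9.63 on the UVD arrays and 6.29 on both SO arrays, a log2 fold change of 0.69 with a standard error of 0.08 (limma adjusted p = 0.113). The scanner's own error of a single value was between 15.7% and 24.5% there. Of its 2 probes, taken alone, 1 was higher and 1 lower in the UVD group. The arm from the other precursor, miR-7a-1-3p, had 83.6 and 80.5 against 72.9 and 75.8, which is a log2 fold change of 0.14 (limma adjusted p = 0.745), and all 4 of its probes were higher. The main arm of the family, miR-7a-5p, had 402 on both UVD arrays and 452 and 318 on the SO arrays, with overlap.

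At 4 h the difference of miR-7a-2-3p ran the other way, with 8.998 and 9.52 on the UVD arrays and 19.1 and 17.7 on the SO arrays. The difference between the UVD-SO differences at 4 d and at 4 h was 1.68 on the log2 scale (95% interval from 1.40 to 1.97, limma adjusted p = 0.00751). It was the single call of this comparison among 422 miRNAs (0.237%), with 37 at an unadjusted p under 0.05. Across the 4 groups, the UVD pools were level at 4 h and 4 d, and the SO pools were high at 4 h and low at 4 d. Without UVD replicate 2 at 4 h, the array that stood apart, the difference was 1.62 with an adjusted p of 0.0540, and the call was lost. In all, it was kept in 9 of the 20 other settings in which this comparison was fitted and lost in 11. Among the latter were the authors' normalized values and normexp background correction, with a 4 d log2 fold change of -0.0032 in both, and leaving out SO replicate 2 at 4 d.

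The other miRNAs with low p-values at 4 d were not shown to differ from 4 h. For miR-1298 the difference between the timepoints was 2.94 (95% interval from 1.15 to 4.74, limma adjusted p = 0.402), with a UVD-SO difference of -0.47 at 4 h. For miR-221-3p it was 0.79 (adjusted p = 0.447), with -0.24 at 4 h. For miR-204-5p it was 0.48 (adjusted p = 0.492), with 0.05 at 4 h. miR-219a-5p was lower in the UVD group at both timepoints, with log2 fold changes of -0.10 at 4 h and -0.29 at 4 d. miR-26b-3p and miR-15b-3p were under 4 on all 8 arrays. Both were set to the floor of 1 on both UVD arrays at 4 h and on UVD replicate 2 at 4 d, so the sizes of their fold changes depend on the floor, and UVD replicate 2 at 4 h did not detect them. On the SO arrays miR-26b-3p lay between 2.22 and 3.48 and miR-15b-3p between 2.10 and 3.12.

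**Figure D5:**
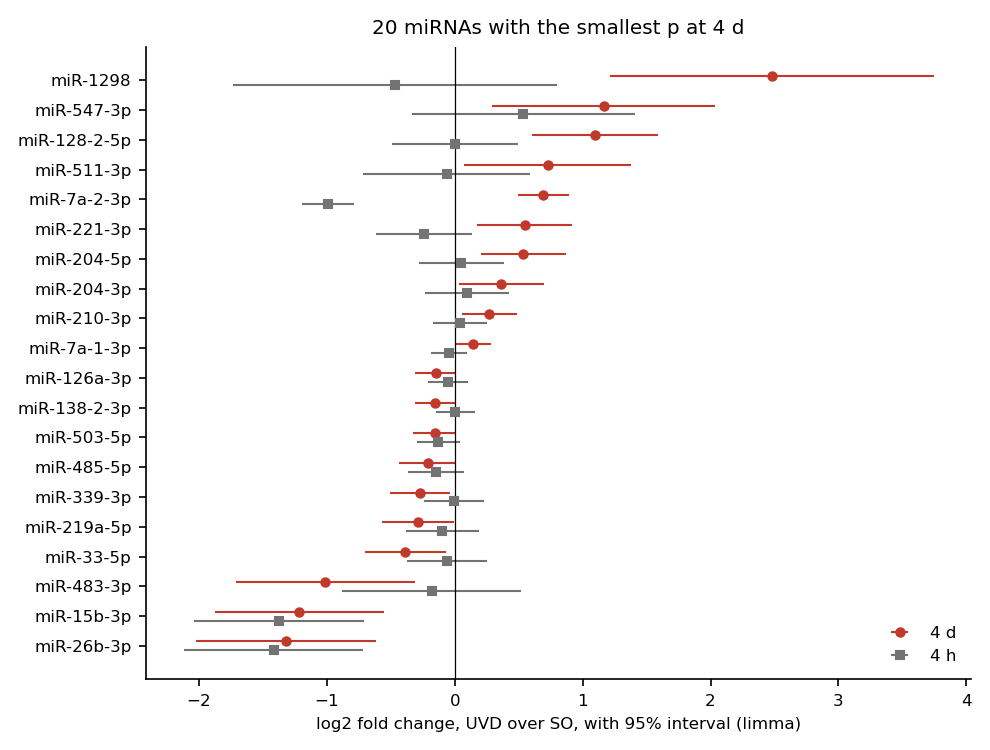
Log2 fold change of the UVD over the SO group with its 95% interval from limma, at 4 d (red circles) and 4 h (gray squares), for the 10 higher and 10 lower miRNAs with the smallest unadjusted p at 4 d. The intervals of miR-7a-2-3p at 4 h and 4 d lie on opposite sides of 0. Those of miR-26b-3p and miR-15b-3p lie on the same side and rest on values at the floor of 1. For miR-128-2-5p, both SO values at 4 d and all values at 4 h were at that floor. For miR-1298 the interval at 4 d lies above 0 and that at 4 h spans it.

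The 7 miRNAs detected on both UVD arrays at 4 d and on neither SO array were all weak. miR-188-3p had 2.15 and 12.0 on the UVD arrays, which is at least 2.16-fold higher than the SO group. This bound sets the UVD mean against the lowest signals detected on the SO arrays, 2.10 and 2.64. miR-3560 had 4.14 and 7.99 and was at least 2.44-fold higher, but on the SO arrays at 4 h it was present at 4.48 and 9.11. miR-3593-5p had 2.22 and 9.83 on the UVD arrays, miR-3580-3p 1.45 and 9.22, and miR-452-5p 2.64 and 3.68. By the same bound they were at least 1.98-fold, 1.55-fold and 1.32-fold higher. For miR-188-3p, miR-3593-5p and miR-3580-3p, UVD replicate 1 lay under 2.64, so the bound rested mostly on UVD replicate 2. miR-128-2-5p, at 1.73 and 2.64, and miR-425-3p, at 1.33 and 1.28, allow no fold, since their UVD means lay under those lowest signals. All 7 were chosen through the UVD group, in which they were detected, and the fit holds both of their SO values at the floor of 1. A test on them is shaped by that choice and by the floor, so no p-value of theirs is printed. miR-128-2-5p is still counted among the higher miRNAs with a low unadjusted p and is called in some other settings. Both carry this limit. miR-188-3p and miR-3560 both lie within Clcn5, on opposite strands, and miR-532-5p, the neighbor of miR-188-3p, had 107 and 120 against 98.4 and 110.8, with overlap.

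The remaining miRNAs with the largest differences among those detected on all 4 arrays were dim as well. miR-547-3p had 9.11 and 7.81 on the UVD arrays and 3.63 and 3.90 on the SO arrays (log2 fold change 1.17, limma adjusted p = 0.745), without overlap. miR-130b-3p had 13.4 and 27.8 against 10.8 and 6.69, and miR-331-5p had 10.6 and 17.1 against 7.99 and 5.24, without overlap for either. miR-216b-5p had 1.37 and 1.14 against 5.12 and 3.21, without overlap. Their 95% intervals spanned 0 except that of miR-547-3p.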

How the data were processed

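miRNAs of the left MVN were measured on Agilent 1-colour rat miRNA arrays, with RNA of 3 rats pooled for each array and 2 arrays per group. The deposited scanner files hold an intensity for each spot and a total gene signal for each miRNA, also an intensity, which the authors' scanner software (Feature Extraction 10.7.3.1, per the file headers) had background-subtracted and summed over the probes. A second deposited table holds the authors' intensity values after quantile normalization in GeneSpring, and it was used as an alternative only. The signal that went into it is not stated in the sources used here; its ranks follow the median spot signal most closely, with a Spearman correlation across miRNAs from 0.9874 to 0.9941 on the 8 arrays.

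Here the total gene signal was quantile normalized over the 8 arrays, set to at least 1 and taken as log2. limma (version 3.58.1 in R 4.3.3, lmFit and eBayes) fitted 4 group means to the 422 miRNAs that the scanner called detected on each array of 1 or more of the 4 groups, with Benjamini-Hochberg adjustment over all of them. The log2 fold change is the UVD mean minus the SO mean. "Without overlap" means that both UVD arrays lay on 1 side of both SO arrays. The methods' t-test is the Student test named in the study, run on the same log2 values. It was undefined for 8 miRNAs with no spread.

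The named miRNAs were those called in either comparison, the 10 higher and 10 lower with the smallest p, the 5 higher and 5 lower with the largest fold change among those detected on all 4 arrays, those detected in 1 group alone, the 9 candidates of the study, up to 4 of each list, and their arms and neighbors. miR-448-3p, miR-448-5p, miR-764-3p, miR-1912-3p, miR-1912-5p, miR-3552, miR-484 and some partners of the same cluster were added after their values had been seen. The members and the lists were chosen with earlier results of these data known. The samples were grouped by the labels. The labels number the replicates but name no pairing, and at 4 d the differences between replicates 1 and 2 correlated at -0.14 between the UVD and the SO group, so the numbers were not used as pairs. p-values measure the spread between pools. The number of arrays limits the precision. The code was tested on simulated data.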

Additional observations from a re-analysis of the deposited data

Results flagged for a closer look

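For miR-7a-2-3p, the UVD-SO difference at 4 d and that at 4 h differed from each other by 1.68 on the log2 scale in limma's test of the difference itself. The intensity was higher in both UVD pools at 4 d and lower in both UVD pools at 4 h. All 8 values were under 20, its 2 probes had opposite directions at 4 d, and the call was lost in 11 of the 20 other settings, among them the fit without UVD replicate 2 at 4 h.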

How the results depend on the processing

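The count of called miRNAs at 4 d, 0 as reported, was 1 with either scaling to the 75th percentile, with no scaling between arrays, with a floor of 0.1 and without UVD replicate 1, in each case miR-128-2-5p, and 2 with no filter on detection (miR-181a-5p and miR-496-3p). Leaving out 1 array gave 0 to 1 calls. The count for the difference between timepoints, 1 as reported, was 2 with either scaling to the 75th percentile and with no scaling, where miR-128-2-5p and miR-344b-5p were called and miR-7a-2-3p was not. It was 3 with a floor of 0.1 (the same pair and miR-7a-2-3p) and with no filter (miR-181a-5p, miR-496-3p and miR-7a-2-3p), and 0 with normexp on the median spot signal, with the brightest probe, with the authors' values, with an intensity trend, plain or robust, and with the crossed pairing. Leaving out 1 array gave 0 to 3 calls, with 0 without SO replicate 2 at 4 d, 3 without SO replicate 1 at 4 d (miR-7a-2-3p, miR-7a-5p and miR-10a-5p) and 0 without UVD replicate 2 at 4 h, a setting chosen after seeing the data. With the replicate number as a block, the counts were 0 and 1. The crossed pairing, chosen after seeing the data, gave 0 and 0. The cause of these changes was not tested. miR-128-2-5p was detected on neither SO array at 4 d and was at the floor on both in the main fit.

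Of the 73 miRNAs recomputed, 50 kept their direction in all settings, and 3 of the 41 with a log2 fold change of at least 0.25 in size changed it in at least 1. Of these 41, the size was over 1.5 times smaller for 32 with normexp, 30 on the authors' values, 22 with the pseudocount of 16 and 19 with the brightest probe. With no scaling, where the median of all miRNAs was 0.16, these log2 fold changes turned positive: 0.060 for miR-126a-3p, 0.044 for miR-132-3p, 0.015 for miR-133a-3p, 0.014 for miR-133b-3p, 0.017 for miR-137-3p, 0.077 for miR-138-2-3p, 0.075 for miR-144-3p, 0.17 for miR-15b-3p, 0.15 for miR-211-3p, 0.0996 for miR-212-3p, 0.069 for miR-218a-5p, 0.025 for miR-338-3p, 0.038 for miR-485-5p and 0.032 for miR-503-5p. On the authors' values miR-764-3p was at -0.018 and miR-7a-2-3p at -0.0032, and the latter was at -0.0032 with normexp. Leaving out 1 array, these changed direction: from -0.40 to 0.091 for miR-10a-5p, from -0.39 to 0.038 for miR-10b-5p, from -0.36 to 0.032 for miR-132-3p, from -0.30 to 0.028 for miR-133a-3p, from -0.38 to 0.11 for miR-133b-3p, from -0.73 to 0.31 for miR-144-3p, from -0.084 to 0.011 for miR-212-3p, from -0.095 to 0.14 for miR-222-3p, from -0.13 to 0.48 for miR-448-5p, from -0.25 to 0.34 for miR-451-5p, from -0.014 to 1.48 for miR-484, from -0.24 to 0.29 for miR-764-3p and from -0.18 to 0.33 for miR-7a-5p. With 2 pools per group, an array left out leaves 1 pool, which is then assumed to vary like the other groups. Values near the floor of 1 are little above background and depend on the scaling and the floor.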
